A study of Homo sapiens with 13 samples.

Results

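Fast excitatory signalling in the brain runs through ionotropic glutamate receptors, and the genes described here encode the subunits of AMPA receptors (GRIA1, GRIA2, GRIA3 and GRIA4) and of kainate receptors (GRIK1, GRIK2, GRIK3, GRIK4 and GRIK5). The 9 genes were taken by symbol from the deposited count tables, which list 60639 gene identifiers between them, and all 9 were present in both tables. AMPA receptors are tetramers that open rapidly after glutamate release and carry most of the excitatory postsynaptic current. The subunit encoded by GRIA2 is edited at a single codon by an adenosine deaminase that acts on RNA, and receptors that contain the edited form pass little calcium. Among kainate receptor subunits, those encoded by GRIK1, GRIK2 and GRIK3 can form channels by themselves, whereas those encoded by GRIK4 and GRIK5 bind kainate with high affinity but need a partner of the first kind.

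RNA was sequenced from 13 cultures of H9, a human embryonic stem cell line, that carried a doxycycline-inducible NEUROG2 gene, a proneural transcription factor whose forced expression turns stem cells into excitatory neurons. In the doxycycline set, named hES-N1, 1 library each came from cells given 1 µg/ml doxycycline for 5 or 11 days, from cells grown for 5 or 11 days without it, and from cells at day 0. In the FGF2 set, named hES-N2G1 and hES-N2G2 in the titles and hES-N1 in the source names, every culture received doxycycline for 6 days and each of the 4 groups had 2 libraries. Early FGF2 (20 µg/ml, as labelled) was given together with doxycycline until harvest on day 6, and its control received doxycycline alone. Late FGF2 was given for 6 days after doxycycline had been withdrawn, with harvest on day 12, and its control received no factor in those days. The cultures began in E8 stem cell medium, and those grown past day 0 passed to 3N, a neural medium. Time and medium therefore change together between day 0 and the later controls, and cannot be told apart there. Each library was made from 1 well. Whether the numbers in hES-N2G1 and hES-N2G2 mark clones, cultures or lines is not stated, so p-values measure the spread between these libraries, which may be technical. For the day-12 controls the description field mentions 6 days, and the title's day 12 is used here.

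The libraries held 22802501 to 47159475 counted reads. Levels are counts scaled to 1000000 reads with the trimmed mean of M values (CPM), and levels of different genes are compared only after division by the exon length of the gene (CPM per kb). NEUROG2 was at 1564 CPM with doxycycline and 1.34 CPM without it on day 5, and at 1018 CPM with doxycycline and 6.26 CPM without it on day 11. In the FGF2 set it was at 7544 to 7831 CPM on day 6 and at 49.3 to 54.7 CPM on day 12. The summed level of 8 neuron markers was 9239 CPM with doxycycline and 39.8 CPM without it on day 5, and it lay between 6644 and 11400.0 CPM in all FGF2-set libraries. The GABAergic list of 5 markers summed to 0.683 to 1.45 CPM in the FGF2 set. The 6 oligodendroglial markers summed to 34.4 to 52.7 CPM in the FGF2 set and to 42.0 to 187 CPM in the doxycycline set. SOX10, 1 of those 6, was at 0 counts in all 13 libraries. ETV4 and SPRY4 are known targets of FGF signalling. ETV4 was at 96.7 and 99.6 CPM with late FGF2, against 2.31 and 1.15 CPM in day-12 controls. With early FGF2 it was at 3.05 and 3.22 CPM, against 3.22 and 3.13 CPM in day-6 controls. SPRY4 was at 68.1 and 68.0 CPM with late FGF2, against 8.60 and 6.44 CPM in day-12 controls, and at 79.3 and 57.6 CPM with early FGF2, against 89.4 and 80.9 CPM in day-6 controls. The libraries of early FGF2 differed from each other more than those of the other groups did, by a chi-square of their counts over genes (21.4 per degree of freedom, against 3.03 to 3.46 for the other groups), and early results are therefore also given without each of them in turn.

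With doxycycline, most AMPA and kainate subunit genes were far higher than without it, and the highest ratio belonged to GRIA2. On day 5, 6 of the 9 genes were at least 4-fold higher with doxycycline (GRIA2, GRIA3, GRIA4, GRIK1, GRIK2 and GRIK3), among 7 that reached 10 CPM in either library. Over all genes with 10 CPM in either library, 12.6% were at least 4-fold higher with doxycycline and 24.1% were at least 4-fold different either way. On day 11, 5 of the 9 were at least 4-fold higher (GRIA2, GRIA4, GRIK1, GRIK2 and GRIK3), among 8 that reached 10 CPM, against 11.5% of all genes. None was at least 4-fold lower on either day, but such a call needed 10 CPM without doxycycline. GRIK5 alone reached that on day 5 (55.4 CPM), and GRIK5 (72.9 CPM) and GRIK3 (11.4 CPM) did on day 11. The other genes could not be called lower, so the absence of lower calls says little. The 6 genes called higher on day 5 reached 10 CPM through the doxycycline library alone, where they were high. So did those called higher on day 11, except GRIK3. The filter thus favoured higher calls among the 9. Over all genes with 10 CPM in either library, 11.5% were at least 4-fold lower on day 5. On day 11, 9.85% were lower and 21.4% differed either way. The median log2 ratio over the 9 genes, whatever their level and after adding 1 CPM to both values, was 3.46 on day 5 and 2.57 on day 11, against 0.23 and 0.16 over the 12895 and 12654 genes with 10 CPM in either library. Each group of this set is 1 library, so these ratios have no replicate check, and the intervals given below are 95% exact binomial intervals that cover counting error only. Doxycycline and the NEUROG2 it induced came together in these cultures and cannot be told apart. The 6 pluripotency markers summed to 552 CPM with and 3678 CPM without doxycycline on day 5, and the 6 markers of dividing cells to 58.7 CPM with and 1546 CPM without it, with none at 0 counts, and their part in the ratios was not tested. In bulk RNA, fewer cells of a type and less RNA per cell cannot be told apart either. Several subunit genes were far lower in day-6 controls of the FGF2 set, given the same doxycycline dose for 6 days, than with doxycycline on day 5. GRIK1 was at 1.504 and 1.76 CPM in those controls, against 40.2 CPM on day 5. GRIA4 was at 8.85 and 9.36 against 95.1 CPM, and GRIA2 at 10.6 and 14.0 against 79.3 CPM. GRIK3 was closer, at 61.1 and 55.4 against 65.8 CPM. The sets were scaled separately, and the cause was not tested.

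**Figure D1:**
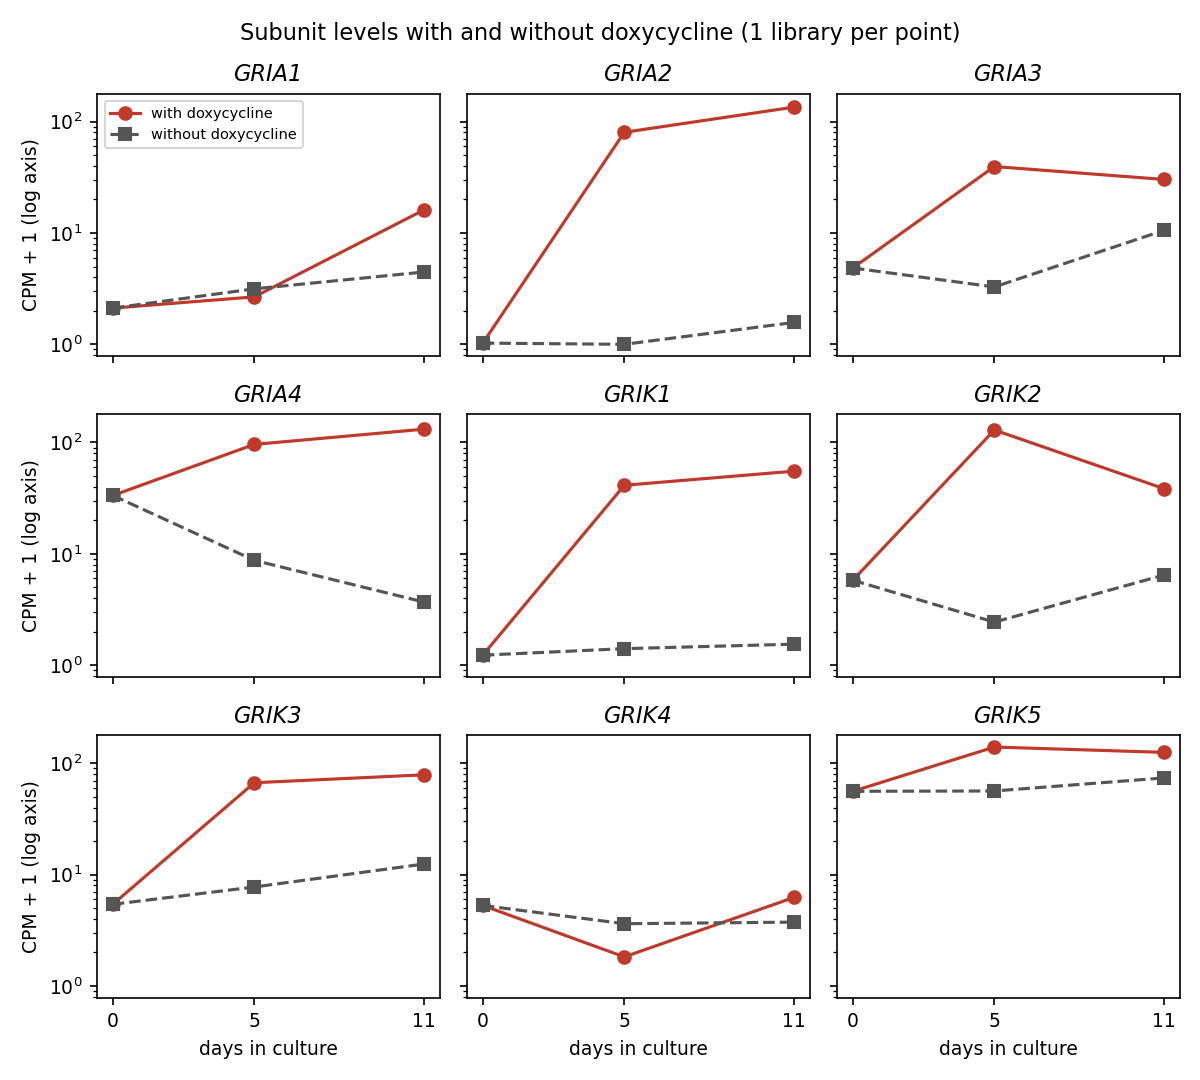
Level of each subunit gene (CPM + 1, log axis) against days in culture, with doxycycline (circles, solid line) and without it (squares, dashed line), 1 library per point and day 0 shared by both lines. GRIA2 and GRIK1 stay near the bottom without doxycycline and reach 134 and 54.3 CPM with it on day 11, while GRIA4 falls without doxycycline and GRIK2 is higher on day 5 than on day 11 with it.

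GRIA2 encodes the subunit that keeps calcium out of AMPA receptors. It had 3281 counts with doxycycline and 0 counts without it on day 5, and 4429 counts with doxycycline and 19 counts without it on day 11. In CPM these were 79.3 with and 0 without doxycycline on day 5, and 134 with and 0.572 without it on day 11, while the day-0 library held 1 count. Computed against a floor of 3 counts in the control library, the gene was 848-fold higher with doxycycline on day 5. The exact interval, from the 0 counts themselves, had a lower limit of 689. On day 11 the gene was 235-fold higher (interval 150 to 390). GRIA2 lies on chromosome 4 from 157204182 to 157366075 (GRCh38, plus strand), and the 250 bases before the third of its starts in the RefSeq table (GRCh38.p14) are shown because they hold a motif that few promoters have. The window, chr4:157220369-157220618 on the plus strand, lies inside the annotated gene but overlaps no exon of the GENCODE 29 annotation.

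GRIA2: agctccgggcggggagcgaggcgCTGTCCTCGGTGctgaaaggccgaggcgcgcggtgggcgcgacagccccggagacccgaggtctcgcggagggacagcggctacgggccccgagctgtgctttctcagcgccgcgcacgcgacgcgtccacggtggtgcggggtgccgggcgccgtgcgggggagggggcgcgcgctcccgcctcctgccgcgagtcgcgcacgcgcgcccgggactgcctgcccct

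The capitals mark a match to the core of the RE1 element, which the repressor REST binds, read on the reverse strand and starting 227 bases before the start. Both strands were searched in the 250 bases before each start. The motif was found in 1 of the 14 windows that the table holds for 7 of the 9 genes, and in 0.134% of all 35116 windows. The E-box CAGATG, which proneural factors bind, was in none of the 14 windows and in 12.2% of all windows. REST itself, a gene chosen after its values were seen, was at 2.25 CPM with doxycycline and 65.4 CPM without it on day 5, and at 1.94 CPM with doxycycline and 61.9 CPM without it on day 11. On day 0 it was at 63.1 CPM, and in the FGF2 set it was at 2.11 to 3.18 CPM. Its part in the level of GRIA2 was not tested.

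The other AMPA subunits differed from GRIA2 in their starting level and in their course. GRIA4 encodes a subunit common in the embryonic brain, and it was the most abundant AMPA subunit RNA per length in stem cells, at 3.21 CPM per kb on day 0. It was at 95.1 CPM with and 7.73 CPM without doxycycline on day 5, a 12.3-fold difference (interval 10.8 to 14.0). On day 11 it was at 131 CPM with and 2.68 CPM without doxycycline, a 48.8-fold difference (interval 39.5 to 60.9), and the day-0 library was at 32.4 CPM. Part of the day-11 ratio thus lay in the control: among 3 of the 9 genes that reached 10 CPM in either library, GRIA4 was the only 1 at least 4-fold different between the day-11 control and day 0, where it was 0.0827 times as high (interval 0.0659 to 0.103), and 4.57% of all genes were at least 4-fold different there, 2.46% lower. Between the day-5 control and day 0, none of the 9 genes reached 4-fold on the log2(CPM + 1) scale, against 1.05% of all genes either way and 0.21% lower, and GRIA4 had a log2 ratio of -1.94. GRIA4 did pass 4-fold there with library totals (log2 ratio -2.03), with 0.25 CPM added in place of 1 CPM, or with the deposited normalized values. GRIA3, an X-linked subunit gene, was at 38.5 CPM with and 2.28 CPM without doxycycline on day 5, and at 29.3 CPM with and 9.58 CPM without it on day 11, ratios of 16.9 (interval 13.4 to 21.7) and 3.06 (interval 2.69 to 3.48). GRIA1 encodes the subunit best known for its insertion at synapses during plasticity. It had 69 counts with and 69 counts without doxycycline on day 5, at 1.67 CPM with and 2.15 CPM without it (ratio 0.775, interval 0.547 to 1.10). On day 11 it was at 15.1 CPM with and 3.46 CPM without doxycycline, a ratio of 4.37 (interval 3.56 to 5.40), which is under 4-fold once 1 CPM is added to both values.

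Among kainate subunits, GRIK1 and GRIK2 had the highest ratios on day 5. On day 11 GRIK1 had the highest, and the intervals of GRIK2 and GRIK3 overlapped. GRIK1 was at 40.2 CPM with and 0.405 CPM without doxycycline on day 5, and at 54.3 CPM with and 0.542 CPM without it on day 11. The ratios were 99.3 (interval 57.9 to 187) on day 5 and 100.1 (interval 63.2 to 169) on day 11. Of its exon bases, 1.06% are shared with BACH1 on the opposite strand, and the other 8 genes share none. GRIK2, whose product forms the common kainate receptors of the forebrain, was at 128 CPM with and 1.43 CPM without doxycycline on day 5, and at 37.4 CPM with and 5.45 CPM without it on day 11. Its ratio was 89.6 (interval 67.1 to 123) on day 5 and 6.86 (interval 5.87 to 8.07) on day 11. GRIK3, which encodes a kainate subunit of low glutamate sensitivity, was at 65.8 CPM with and 6.73 CPM without doxycycline on day 5, and at 77.7 CPM with and 11.4 CPM without it on day 11. The ratios were 9.78 (interval 8.51 to 11.3) and 6.79 (interval 6.10 to 7.59).

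The high-affinity subunits GRIK4 and GRIK5 were the kainate subunits that did not reach a 4-fold difference. GRIK5 was the most abundant of the 9 RNAs per length in all 9 groups, stem cells included. It was at 27.7 CPM per kb with and 11.0 CPM per kb without doxycycline on day 5, at 24.8 CPM per kb with and 14.5 CPM per kb without it on day 11, and at 11.0 CPM per kb on day 0. Its ratios of CPM were 2.51 (interval 2.38 to 2.65) on day 5 and 1.71 (interval 1.62 to 1.79) on day 11. GRIK4 was at 0.822 CPM with and 2.62 CPM without doxycycline on day 5, with 34 against 84 counts, and at 5.24 CPM with and 2.74 CPM without it on day 11. GRIK4 thus had the opposite direction on the 2 days, and it reached 10 CPM in no library.

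Between day 11 and day 5 under continued doxycycline, GRIA1 was the only 1 of the 9 genes at least 4-fold different, with 500 counts on day 11 and 69 counts on day 5. The ratio was 9.08 (interval 7.05 to 11.9), and 1.96% of all genes were at least 4-fold different, 0.741% higher and 1.22% lower. GRIK4, with 173 counts on day 11 and 34 counts on day 5, had a ratio of 6.38 (interval 4.395 to 9.504) but did not reach 10 CPM. GRIK2 was lower on day 11 than on day 5, at 0.291 times the level (interval 0.274 to 0.310). GRIA2 was 1.69 times (interval 1.62 to 1.77) and GRIA4 1.37 times (interval 1.32 to 1.44) as high on day 11 as on day 5. The remaining genes that reached 10 CPM lay between 0.760 and 1.35 times, and for GRIK5 the direction turned with the deposited normalized values (log2 ratio of 0.20 against -0.16). The comparisons with doxycycline share libraries with each other and are not independent. Scaling by library totals in place of trimmed means moved the median log2 ratio over all genes with 10 CPM in either library by -0.17 on day 5, -0.33 on day 11, 0.10 between the days with doxycycline, 0.15 between the day-11 control and day 0 and -0.10 between the day-5 control and day 0. The only direction among the 9 genes that turned with it was that of GRIK5 between the day-5 control and day 0 (log2 ratio of -0.09 against 0.01).

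The mix of subunits changed with the levels. Summed over the AMPA subunits, levels per length were 24.5 CPM per kb with and 1.40 CPM per kb without doxycycline on day 5, and 34.5 CPM per kb with and 2.26 CPM per kb without it on day 11. GRIA2 made up 36.3% of that sum with and 0% without doxycycline on day 5, and 43.5% with and 2.83% without it on day 11. On day 0 GRIA4 made up 81.2% of the AMPA sum. The kainate subunits summed to 60.8 CPM per kb with and 12.3 CPM per kb without doxycycline on day 5, and to 50.9 CPM per kb with and 16.9 CPM per kb without it on day 11. GRIK5 made up 45.6% of the kainate sum with and 89.5% without doxycycline on day 5, and 48.7% with and 86.1% without it on day 11.

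In the order of levels per length with doxycycline on day 5, GRIK5 and GRIK2 led, and GRIK1, GRIA4 and GRIA2 followed at 9.49, 9.43 and 8.87 CPM per kb, with neighbours whose counting intervals overlapped. GRIK3 and GRIA3 came next at 6.51 and 5.94 CPM per kb, and GRIA1 and GRIK4 were last at 0.218 and 0.109 CPM per kb. On day 11 with doxycycline GRIA2 stood second at 15.0 CPM per kb. GRIA4 and GRIK1 followed at 12.96 and 12.8 CPM per kb with overlapping intervals, and GRIK2 and GRIA3 also overlapped, at 4.93 and 4.51 CPM per kb.

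**Figure D2:**
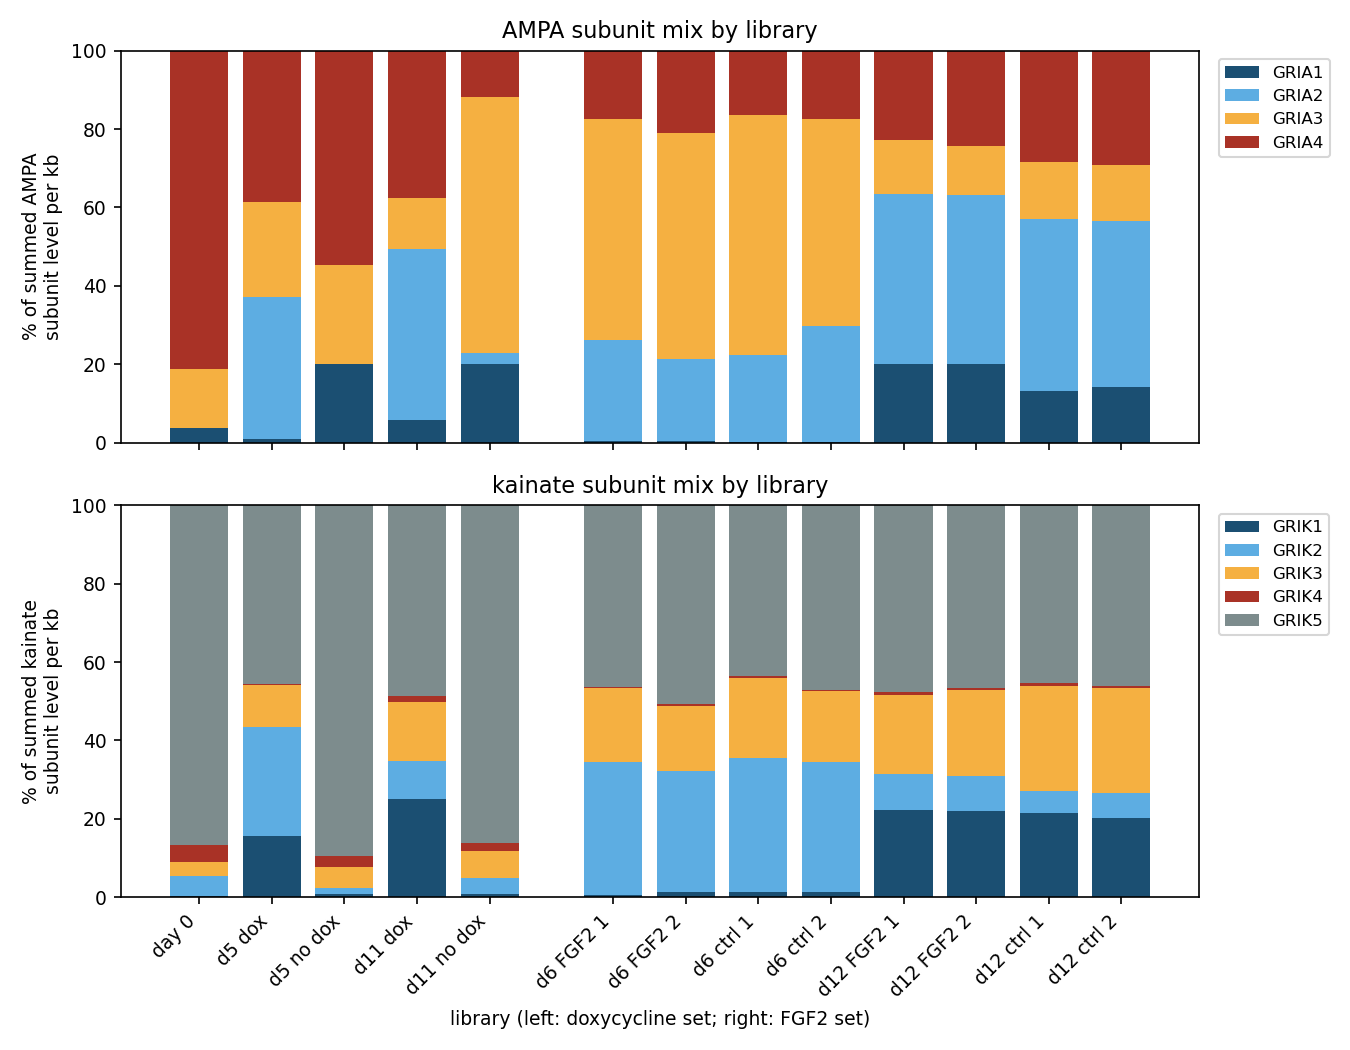
Share of each subunit in the summed level per kb of exon of the AMPA subunits (upper panel) and of the kainate subunits (lower panel), in percent, with 1 bar per library and the doxycycline set left of the FGF2 set. GRIA2 is 43.5% of the AMPA sum with doxycycline on day 11 and 2.83% without it, and GRIK1 is 20.3% to 22.2% of the kainate sum in the day-12 libraries against 0.623% to 1.37% in the day-6 libraries.

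In the replicated FGF2 set, the subunit genes changed far more between day 6 and day 12 than with FGF2. All 9 genes passed an adjusted p of 0.05 between the day-12 and the day-6 controls, 8 of them higher on day 12 and GRIK2 lower. This is read against a background in which 64.0% of the 20142 genes tested passed, 31.7% higher and 32.3% lower. The median log2 fold change was 2.03 over the 9 genes and -0.00 over all genes tested. Test values come from edgeR's quasi-likelihood test in a fit of all 8 libraries, and p-values were adjusted by Benjamini-Hochberg across the 20142 genes. The groups differ in 6 days of culture and in the withdrawal of doxycycline, and these cannot be told apart. The 6 markers of dividing cells summed to 9.61 and 10.8 CPM in day-12 controls, against 378 and 451 CPM in day-6 controls, with none of the 6 at 0 counts, and their part in these differences was not tested.

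GRIA1 had 775 and 751 counts in day-12 controls and 1 and 2 counts in day-6 controls. Its levels were 31.4 and 32.1 CPM in day-12 controls, against 0.0430 and 0.0858 CPM in day-6 controls. Summed over the libraries, the ratio was 493 with a 95% counting interval of 168 to 2391, and the gene, the lowest of the 9 per length in day-6 controls, lay just under GRIA3 in day-12 controls (adjusted p = 1.2e-13 by edgeR).

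The other AMPA subunits were also higher on day 12. GRIA2 was at 123 and 112 CPM in day-12 controls, against 10.6 and 14.0 CPM in day-6 controls. GRIA4 was at 89.8 and 87.0 CPM in day-12 controls, against 8.85 and 9.36 CPM in day-6 controls. Their log2 fold changes were close, at 3.26 (SE 0.14, adjusted p = 1.29e-11) for GRIA2 and 3.28 (SE 0.10, adjusted p = 3.68e-13) for GRIA4. GRIA3 differed least among the 9, at 29.5 and 27.7 CPM in day-12 controls against 21.1 and 18.1 CPM in day-6 controls (log2 fold change 0.55, SE 0.12, adjusted p = 0.000713).

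Kainate subunits moved in both directions. GRIK1 was at 53.5 and 46.7 CPM in day-12 controls, against 1.504 and 1.76 CPM in day-6 controls, a log2 fold change of 4.94 (SE 0.18, adjusted p = 1.8e-12). GRIK2 was at 24.2 and 25.5 CPM in day-12 controls, against 76.7 and 76.1 CPM in day-6 controls, and fell by 1.62 on the log2 scale (SE 0.10, adjusted p = 9.82e-10). The groups did not overlap for any of the 9 genes, which held for 84.0% of all genes tested. GRIK3 was at 158 and 147 CPM in day-12 controls, against 61.1 and 55.4 CPM in day-6 controls (log2 fold change 1.39, SE 0.10, adjusted p = 5.45e-09). GRIK5 was at 133 and 125 CPM in day-12 controls, against 64.5 and 71.8 CPM in day-6 controls (log2 fold change 0.92, SE 0.08, adjusted p = 1.07e-07). GRIK4 stayed the least abundant kainate subunit at 3.49 and 2.13 CPM in day-12 controls, against 0.645 and 0.730 CPM in day-6 controls (log2 fold change 2.03, SE 0.36, adjusted p = 0.000135).

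The order of the subunits per length was thus different on the 2 days. In day-6 controls GRIK5 (13.6 ± 1.03 CPM per kb, SD, n = 2) was followed by GRIK2 (10.1 ± 0.0502), GRIK3 (5.76 ± 0.399), GRIA3 (3.02 ± 0.331), GRIA2 (1.38 ± 0.267) and GRIA4 (0.903 ± 0.0352), with no neighbours overlapping. In day-12 controls GRIK5 (25.8 ± 1.08 CPM per kb) was followed by GRIK3 (15.1 ± 0.799), GRIA2 (13.2 ± 0.897) and GRIK1 (11.8 ± 1.13), of which GRIA2 and GRIK1 overlapped between libraries. GRIK2 stood second among the 9 in day-6 controls and second from last in day-12 controls, at 3.28 ± 0.119 CPM per kb. GRIA3 was 52.7% and 61.1% of the AMPA sum in the day-6 control libraries and 14.4% and 14.5% in the day-12 control libraries, where GRIA2 was 42.3% and 44.0%.

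**Figure D3:**
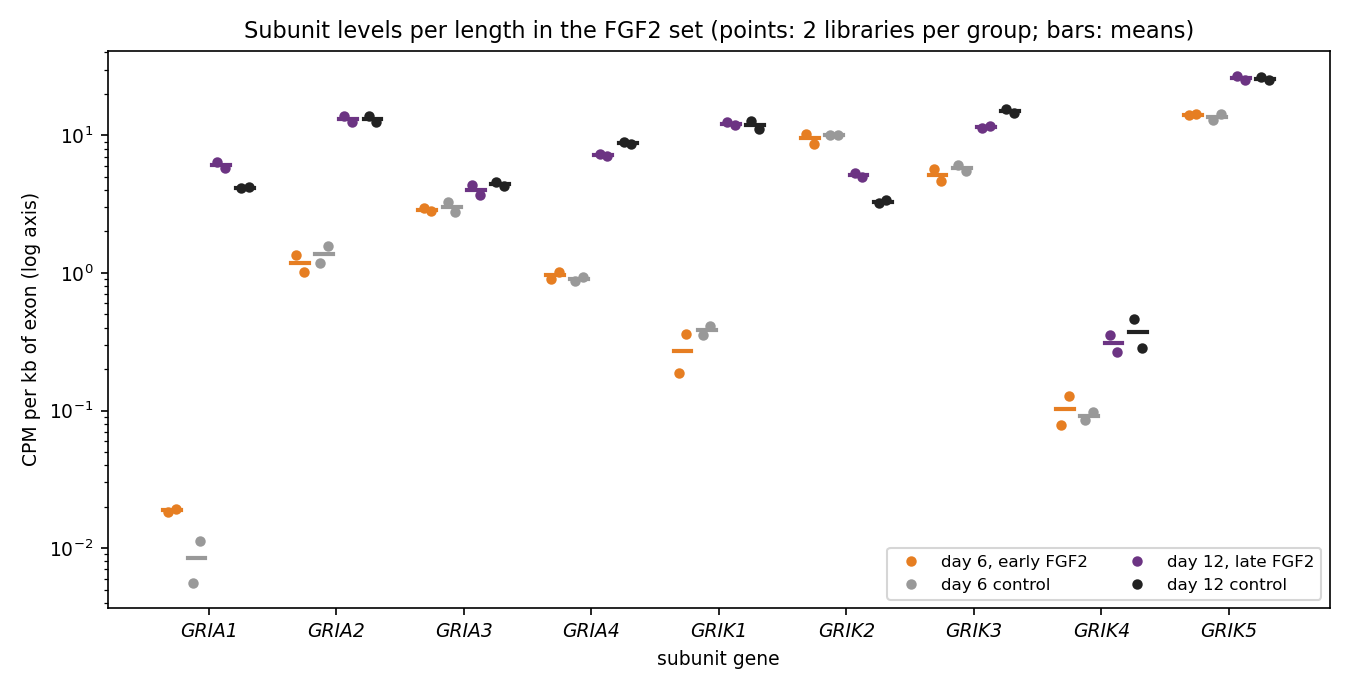
Level per kb of exon (CPM per kb, log axis) of each subunit gene in the FGF2 set, with points for the 2 libraries of a group and bars for the mean. GRIA1 lies between 4.12 and 6.37 CPM per kb on day 12 and between 0.00563 and 0.0194 CPM per kb on day 6, GRIK2 is the only gene with a lower level on day 12, and late FGF2 lies above its control for GRIA1 and GRIK2 and below it for GRIA4 and GRIK3.

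With late FGF2, GRIA1 and GRIK2 rose and GRIK3 fell, while GRIA2, GRIA3, GRIA4, GRIK1, GRIK4 and GRIK5 did not pass the test. The 3 genes called out of 9 stand beside 437 of 20142 genes called, or 2.17%, with 1.63% higher and 0.536% lower. The median log2 fold change was -0.00 over the 9 genes and 0.00 over all genes tested. The libraries of the groups did not overlap for 4 of the 9 genes, against 46.4% of all genes tested.

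GRIA1 was at 48.6 and 44.1 CPM with late FGF2, against 31.4 and 32.1 CPM in day-12 controls. Both FGF2 libraries were above both controls, and the log2 fold change was 0.55 (SE 0.10, adjusted p = 0.00553 by edgeR). GRIK2 was at 40.1 and 37.4 CPM with late FGF2, against 24.2 and 25.5 CPM in day-12 controls, again without overlap. It rose by 0.64 on the log2 scale (SE 0.10, adjusted p = 0.00156 by edgeR), so late FGF2 left it between the day-12 control level and the 76.1 and 76.7 CPM of day-6 controls. GRIK3 was at 115 and 118 CPM with late FGF2, against 158 and 147 CPM in day-12 controls, and fell by 0.39 on the log2 scale (SE 0.09, adjusted p = 0.0422 by edgeR).

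Of these, GRIK2 passed when any single day-12 library was left out (adjusted p = 0.0142 to 0.0467). GRIA1 lost its call without control replicate 1 (adjusted p = 0.0922), control replicate 2 (adjusted p = 0.0894) or FGF2 replicate 1 (adjusted p = 0.149), and GRIK3 lost it without any of the 4 day-12 libraries (adjusted p = 0.174 to 0.411), with directions kept in all of these fits. In the authors' deposited DESeq2 table the log2 fold changes were 0.47 for GRIA1, 0.53 for GRIK2 and -0.37 for GRIK3, with adjusted p-values of 2.27e-06, 1.39e-07 and 1.25e-07.

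The remaining AMPA subunits stood apart from GRIA1. GRIA4 was at 73.2 and 70.9 CPM with late FGF2, against 89.8 and 87.0 CPM in day-12 controls. Its groups did not overlap, yet it missed the threshold (log2 fold change -0.29, SE 0.08, adjusted p = 0.107 by edgeR). It passed in a fit of the day-12 libraries alone (adjusted p = 0.0010 by edgeR) and in the authors' deposited DESeq2 table (adjusted p = 0.00119). The fit of the day-12 libraries alone estimates the spread from those libraries only. It called 1338 of 18870 genes, against 437 of 20142 in the fit of all 8 libraries. GRIA2 was at 123 and 112 CPM with late FGF2, against 123 and 112 CPM in day-12 controls, a log2 fold change of -0.00 with an SE of 0.12. GRIA3 was at 28.3 and 23.7 CPM with late FGF2, against 29.5 and 27.7 CPM in day-12 controls. As shares of the summed AMPA level per length, GRIA1 was 19.9% and 20.0% with late FGF2, against 13.1% and 14.2% in day-12 controls, and GRIA4 was 22.8% and 24.3% with late FGF2, against 28.4% and 29.1% in day-12 controls. The sum itself was 28.96 and 31.8 CPM per kb with late FGF2, against 29.6 and 31.4 CPM per kb in day-12 controls.

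GRIK1, GRIK4 and GRIK5 overlapped between late FGF2 and control. GRIK1 was at 53.0 and 50.0 CPM with late FGF2, against 53.5 and 46.7 CPM in day-12 controls (log2 fold change 0.04, SE 0.12). GRIK5 was at 135 and 126 CPM with late FGF2, against 133 and 125 CPM in day-12 controls (log2 fold change 0.02, SE 0.08). GRIK4, at 2.66 and 2.01 CPM with late FGF2 against 3.49 and 2.13 CPM in day-12 controls, had the widest error of the 9 (log2 fold change -0.28, SE 0.29). GRIK2 was 9.16% and 9.38% of the kainate sum with late FGF2, against 5.47% and 6.21% in day-12 controls.

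Promoter windows of the genes that passed with late FGF2 are shown so that their sequence can be set beside GRIA2. Each is the 250 bases before a RefSeq start (GRCh38.p14), written 5′ to 3′ on the strand of the gene and overlapping no GENCODE 29 exon. The GRIA1 window is chr5:153491922-153492171 (plus strand, inside the gene, which spans 153489615 to 153813869). The GRIK2 window is chr6:101393458-101393707 (plus strand, inside the gene, which spans 101181257 to 102070083). The GRIK3 window is chr1:37034516-37034765 (minus strand, before the gene, which spans 36795527 to 37034129).

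GRIA1: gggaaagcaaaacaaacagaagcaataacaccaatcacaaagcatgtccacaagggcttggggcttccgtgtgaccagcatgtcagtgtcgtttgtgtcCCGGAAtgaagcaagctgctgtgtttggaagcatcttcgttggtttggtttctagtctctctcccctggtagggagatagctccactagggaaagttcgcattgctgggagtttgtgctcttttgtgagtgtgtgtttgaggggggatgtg
GRIK2: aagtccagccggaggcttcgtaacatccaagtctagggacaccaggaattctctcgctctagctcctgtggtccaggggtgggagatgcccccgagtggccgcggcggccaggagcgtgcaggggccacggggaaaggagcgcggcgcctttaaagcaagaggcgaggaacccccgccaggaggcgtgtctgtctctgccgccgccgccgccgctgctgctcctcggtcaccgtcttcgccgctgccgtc
GRIK3: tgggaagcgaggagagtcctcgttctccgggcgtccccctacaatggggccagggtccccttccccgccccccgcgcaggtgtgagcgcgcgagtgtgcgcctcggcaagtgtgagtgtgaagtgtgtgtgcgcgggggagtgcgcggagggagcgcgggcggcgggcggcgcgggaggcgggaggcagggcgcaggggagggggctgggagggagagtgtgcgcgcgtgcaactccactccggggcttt

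The capitals in GRIA1 mark CCGGAA, the core that ETS factors such as ETV4 bind, starting 151 bases before the start. It was found on either strand in 1 of the 14 windows of these genes and in 14.5% of all windows. The windows differ in base composition, with 49.6% G and C and 5 CpG sites for GRIA1, 68.0% and 25 for GRIK2, 73.6% and 29 for GRIK3, and 78.8% and 43 for the GRIA2 window.

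**Figure D4:**
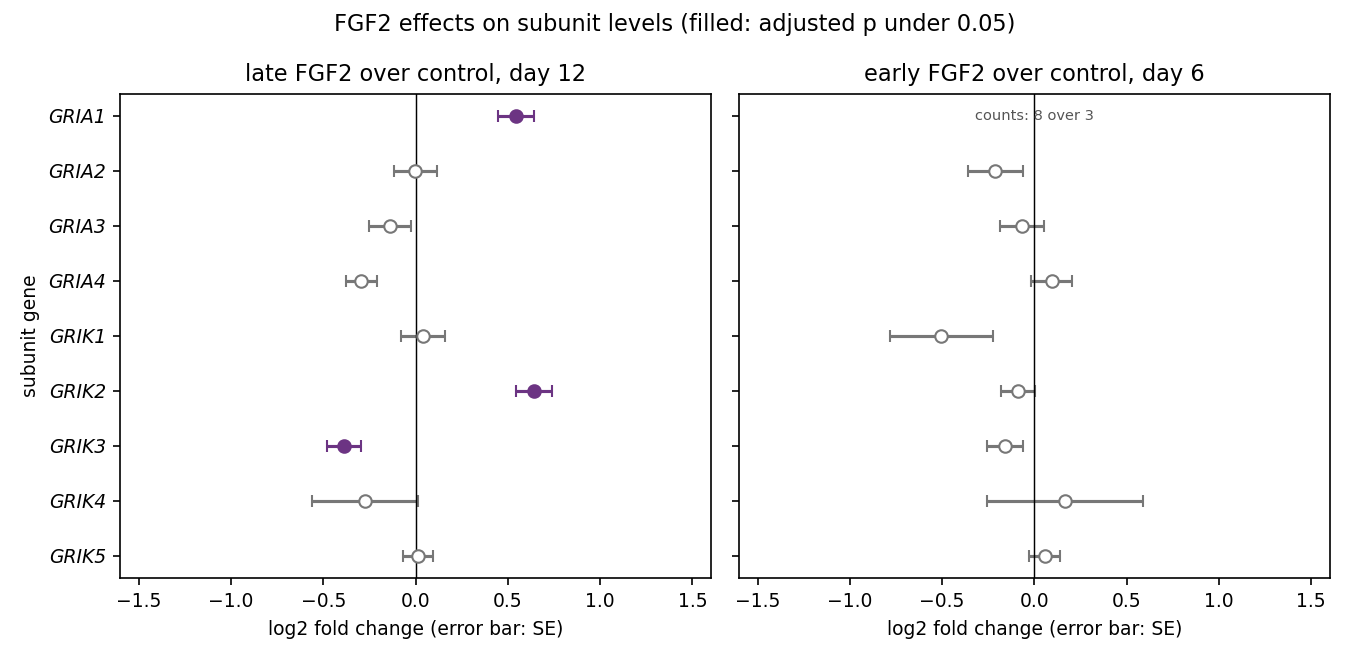
Log2 fold change of each subunit gene with late FGF2 over its control on day 12 (left) and with early FGF2 over its control on day 6 (right), with error bars of 1 SE and filled points for an adjusted p under 0.05. GRIA1 (0.55), GRIK2 (0.64) and GRIK3 (-0.39) are filled on the left and no gene is filled on the right, where GRIA1 has only its counts printed.

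With early FGF2, none of the 9 genes passed the test, in a comparison where 0 of 20142 genes passed by edgeR, DESeq2 or limma voom and 658, 314 and 682 had an unadjusted p under 0.05. GRIA2 was at 12.1 and 9.11 CPM with early FGF2, against 10.6 and 14.0 CPM in day-6 controls. GRIK2 was at 77.8 and 66.0 CPM with early FGF2, against 76.7 and 76.1 CPM in day-6 controls. GRIK3 was at 57.3 and 47.2 CPM with early FGF2, against 61.1 and 55.4 CPM in day-6 controls. In each of these the libraries overlapped between the groups. GRIA1 had 4 and 4 counts with early FGF2, against 1 and 2 counts in day-6 controls, a ratio of 2.22 with a counting interval of 0.534 to 13.01. It was the only 1 of the 9 whose libraries did not overlap between the groups, which held for 28.0% of all genes tested. The other genes had log2 fold changes of -0.51 (SE 0.28) for GRIK1, -0.07 (SE 0.12) for GRIA3, 0.06 (SE 0.08) for GRIK5, 0.09 (SE 0.11) for GRIA4 and 0.17 (SE 0.42) for GRIK4. Without the first early-FGF2 library, 12.0% of genes passed and GRIK3 was among them, with a log2 fold change of -0.30 (adjusted p = 0.0135 by edgeR). Without the second, 0 of 21032 genes passed by edgeR, with 493 at an unadjusted p under 0.05, and GRIK3 had a log2 fold change of -0.02.

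The difference between the late and the early FGF2 effect was tested directly, and GRIK2 was the only 1 of the 9 genes called. Its log2 fold change was 0.64 with late FGF2 and -0.09 with early FGF2, a difference of 0.73 (SE 0.13, adjusted p = 0.0149 by edgeR), where 0.73% of all genes were called, 0.645% higher and 0.0844% lower. With 1 library left out, the difference ran from 0.61 to 0.85. The call was lost without any of the 6 libraries outside the early-FGF2 group. It was kept without either early-FGF2 library, but such a fit drops the spread between those libraries, the widest of the 4 groups. The kept calls therefore say little. For GRIA1 the difference was -0.55 with an SE of 0.72 (adjusted p = 0.948), and rests on 8 counts with FGF2 and 3 counts in controls on day 6. For GRIK3 it was -0.23 (SE 0.13, adjusted p = 0.79).

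Genes whose products build, anchor or edit these receptors were counted in lists, to be read against the 64.0% of all genes called between the day-12 and day-6 controls and the 2.17% called with late FGF2. AMPA receptor auxiliary subunits, which set surface number and gating, were called in all 12 of the 14 members tested between the day-12 and day-6 controls, 8 higher and 4 lower (all genes: 31.7% higher and 32.3% lower), with a median log2 fold change of 1.12. SHISA6 was at 254 and 244 CPM in day-12 controls against 46.5 and 49.2 CPM in day-6 controls. SHISA7 (log2 fold change 3.07, SE 0.12) and CACNG8 (3.42, SE 0.16), a transmembrane AMPA receptor regulatory protein, also rose by edgeR, while SHISA9 fell by 2.04 (SE 0.10). With late FGF2 2 of the 12 were called, both lower. SHISA6 was at 182 and 169 CPM with late FGF2, against 254 and 244 CPM in day-12 controls (log2 fold change -0.51, SE 0.09, adjusted p = 0.00352 by edgeR). SHISA9 was at 18.3 and 17.1 CPM with late FGF2, against 27.4 and 26.5 CPM in day-12 controls (log2 fold change -0.61, SE 0.10, adjusted p = 0.00292 by edgeR). In the doxycycline set CACNG4, another transmembrane AMPA receptor regulatory protein, was at 321 CPM with and 8.17 CPM without doxycycline on day 5. CACNG7, its relative, was at 153 CPM with and 166 CPM without doxycycline on that day. Of 9 auxiliary genes with 10 CPM, 5 were at least 4-fold higher with doxycycline on day 5, and of 8 on day 11, 6 were, against 12.6% and 11.5% of all genes with 10 CPM.

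The kainate receptor auxiliary subunits NETO1 and NETO2 were both called higher in day-12 than in day-6 controls, with log2 fold changes of 1.24 (SE 0.18) and 0.46 (SE 0.09). With late FGF2 neither was called: NETO1 was at 12.7 and 14.3 CPM with late FGF2, against 10.5 and 8.07 CPM in day-12 controls (adjusted p = 0.11 by edgeR). The 4 genes of receptor assembly in the endoplasmic reticulum were all called between the days. FRRS1L, needed for AMPA receptor biogenesis, was at 74.9 and 74.1 CPM in day-12 controls against 15.0 and 16.5 CPM in day-6 controls, and CPT1C and PORCN were also higher. ABHD6, which holds back AMPA receptor delivery, was at 24.3 and 26.6 CPM in day-12 controls against 42.3 and 50.0 CPM in day-6 controls. None of the 4 was called with late FGF2.

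Among 10 genes of anchoring and trafficking, 7 were higher and 1 lower in day-12 than in day-6 controls, where 64.0% of all genes were called. EPB41L1, a cytoskeletal linker of AMPA receptors, was at 437 and 440 CPM in day-12 controls against 86.4 and 95.4 CPM in day-6 controls, and the scaffold DLG4 was at 291 and 264 CPM in day-12 controls against 140 and 144 CPM in day-6 controls. GRIP2, which binds the tails of AMPA receptors, was at 3.61 and 4.70 CPM in day-12 controls against 0 and 0.0858 CPM in day-6 controls. ARC, an immediate early gene that promotes AMPA receptor endocytosis, fell by 2.72 (SE 0.18) and was the only gene of the list called with late FGF2. It was at 4.23 and 3.76 CPM with late FGF2, against 2.19 and 1.88 CPM in day-12 controls (log2 fold change 0.97, SE 0.20, adjusted p = 0.0173 by edgeR). Of 5 genes for extracellular clustering proteins, 3 were higher and 1 lower in day-12 than in day-6 controls. NPTX2 was at 13.9 and 15.3 CPM in day-12 controls against 352 and 326 CPM in day-6 controls, whereas its relatives NPTX1 (log2 fold change 3.39, SE 0.11) and NPTXR (2.44, SE 0.09) and C1QL2 (7.28, SE 0.27), a ligand of kainate receptors in the mouse, were higher. None of the 5 was called with late FGF2.

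**Figure D5:**
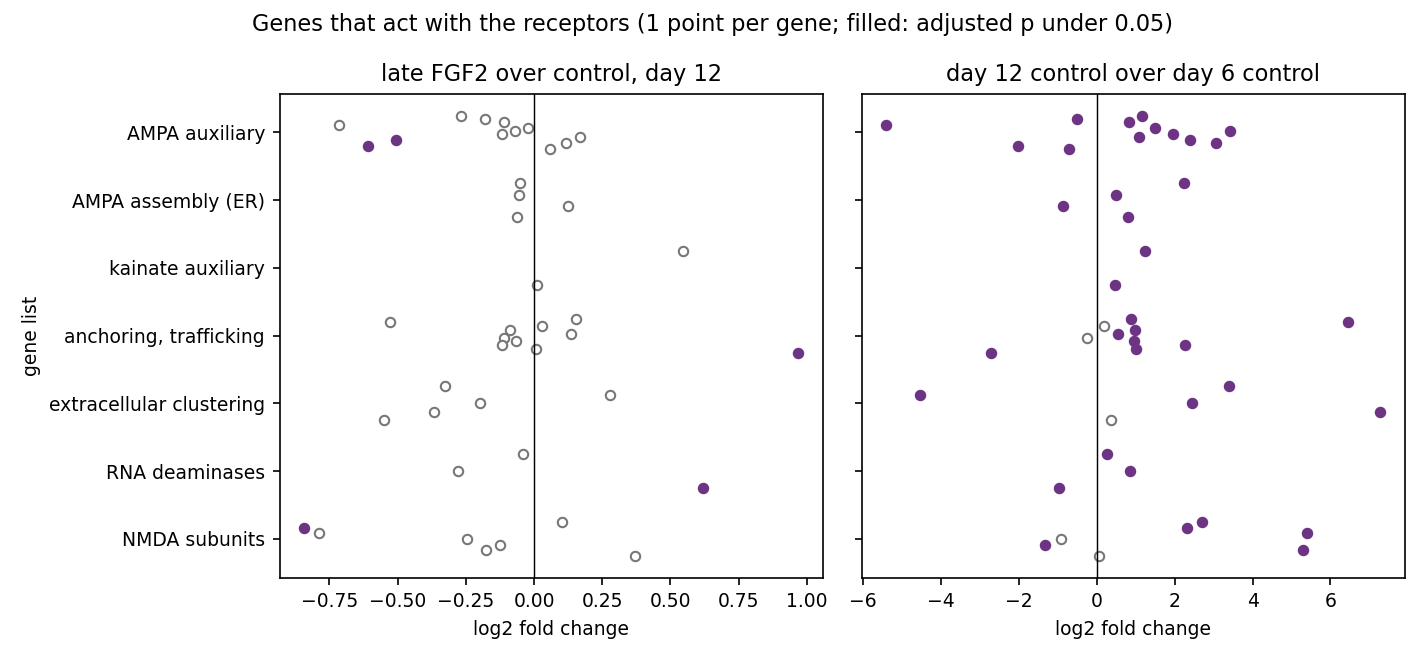
Log2 fold change of genes in lists that act with AMPA and kainate receptors, and of NMDA receptor subunits, with late FGF2 over control on day 12 (left) and in day-12 over day-6 controls (right), 1 point per gene and filled points for an adjusted p under 0.05. The horizontal axes differ: the left panel stays within 1 log2 unit, with SHISA6, SHISA9, ARC, ADARB2 and GRIN2A filled, and the right panel reaches 7.28 for C1QL2.

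Adenosine deaminases acting on RNA edit receptor transcripts, and ADARB1 is the enzyme known to edit the GRIA2 codon. It was at 80.1 CPM with and 25.2 CPM without doxycycline on day 5, and at 59.4 CPM with and 14.9 CPM without it on day 11. In day-12 controls it was at 111 and 103 CPM, against 55.2 and 64.0 CPM in day-6 controls (log2 fold change 0.84, SE 0.09, adjusted p = 1.09e-06 by edgeR). ADARB2, a brain relative without known editing activity, was called with late FGF2, at 45.2 and 47.3 CPM against 31.8 and 28.4 CPM in day-12 controls (log2 fold change 0.62, SE 0.13, adjusted p = 0.0185 by edgeR). Editing itself was not measured by gene counts.

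NMDA receptors, the other main ionotropic glutamate receptors, give a frame for these values. Of the 7 NMDA receptor subunit genes, 4 were higher and 1 lower in day-12 than in day-6 controls, and 1 was lower with late FGF2, against 64.0% and 2.17% of all genes called. GRIN2A was at 27.1 and 28.9 CPM with late FGF2, against 44.7 and 55.8 CPM in day-12 controls (log2 fold change -0.84, SE 0.17, adjusted p = 0.0131 by edgeR). GRIN1, the obligatory NMDA receptor subunit, was at 5.92 and 4.10 CPM in day-12 controls, against 0.860 and 0.687 CPM in day-6 controls. On day 5, none of the 7 was at least 4-fold higher with doxycycline, where 2 reached 10 CPM. On day 11, 4 of the 7 were, and only these 4 reached 10 CPM. A gene that is high with doxycycline can reach 10 CPM through that library alone. The shares of all genes with 10 CPM that were at least 4-fold higher were 12.6% on day 5 and 11.5% on day 11.

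Few cell type markers were called with late FGF2. The neuron markers summed to 10942 and 11279.7 CPM with late FGF2, against 11229 and 11400.0 CPM in day-12 controls, and 0 of 8 were called. Of 6 neural progenitor markers, SOX1 and SOX2 were called lower with late FGF2. The list summed to 1014 and 1095 CPM with late FGF2, against 871 and 932 CPM in day-12 controls, with no marker at 0. NES and VIM, neither of them called, made up most of that sum and were higher with late FGF2. NES was at 535 to 601 CPM with late FGF2, against 457 to 496 CPM in day-12 controls. VIM was at 424 to 437 CPM with late FGF2, against 331 to 356 CPM in day-12 controls. Of 6 oligodendroglial markers, 4 were tested and OLIG2 was called higher. The 6 summed to 43.3 and 44.6 CPM with late FGF2, against 34.4 and 39.6 CPM in day-12 controls, with SOX10 at 0. MBP, not called, made up most of that sum, at 33.0 to 33.1 CPM with late FGF2 and 27.7 to 31.3 CPM in day-12 controls. The 6 astroglial markers summed to 177 and 181 CPM with late FGF2, against 234 CPM in both day-12 controls. None of the 4 that were tested was called. In these groups SLC1A2 was the only astroglial marker at 1 CPM or more. It made up nearly all of the sum, at 176 to 180 CPM with late FGF2 and 232 CPM in day-12 controls. The part of all these cell type markers in the differences of GRIA1, GRIK2 and GRIK3 was not tested.

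The genes whose pattern was most like that of GRIA2, the AMPA subunit with the highest mean level in the FGF2 set, both in CPM and in CPM per kb, were KCTD16, CLASP2 and STX7. Among 11509 genes with a symbol and a mean of at least 5 CPM in each set, they had the highest values of the lower of 2 Pearson correlations of log2(CPM + 1), at 0.998 for each, computed over 8 FGF2-set libraries and over 5 doxycycline-set libraries. For GRIK5, the kainate subunit highest by the same measures, they were SLIT1 (0.996), EFR3B (0.992) and FGF9 (0.992). These correlations follow the large steps that the libraries share, with and without doxycycline and between day 6 and day 12, and describe a pattern.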

How the data were processed

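The authors deposited raw read counts per gene for both sets, which, per the submitters' processing notes, came from Subread (featureCounts) 1.5.0 and GRCh38. For the doxycycline set they also deposited normalized signal values, used as an alternative only, in which each count is multiplied by 1 of 6 factors (0.839 to 1.19) that cycle down the rows and not by a factor per library. The authors' deposited comparison tables hold log2 fold changes and p-values from DESeq2 and limma, and their 16 per-sample columns were not used here. Strand use in counting is not given in the sources used here.

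Members and lists were chosen with earlier results of these data known. The 8 FGF2 libraries were fitted with edgeR 4.0.16 (filterByExpr, TMM, quasi-likelihood, 1 mean per group, two-sided tests, calls at an adjusted p under 0.05), and DESeq2 1.42.0 and limma voom 3.58.1 were alternatives. SE is the absolute log2 fold change over the square root of F. The method was also run on simulated data whose spread was taken from these libraries, and no result given here rests on that run. The doxycycline set has 1 library per group and no test: log2 ratios of CPM + 1, with a call at 4-fold and 10 CPM in either library, exact 95% intervals and a floor of 3 counts. Counted reads ranged over 28443657 to 47159475 (doxycycline set) and 22802501 to 30014661 (FGF2 set). Exon lengths are GENCODE 29 exon unions, and promoter windows are RefSeq's. Genes named besides the 9 are up to 4 called per list with the smallest adjusted p, or those of highest CPM, and the 3 most alike in pattern, with NEUROG2, ETV4 and SPRY4 as checks. REST and single marker genes are named outside that rule, with their values known. Results of the delta and metabotropic receptor lists are not reported here.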

Additional observations from a re-analysis of the deposited data

Results flagged for a closer look

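GRIK2 was called for a difference between its 2 FGF2 effects: the late effect minus the early effect was 0.73 on the log2 scale (SE 0.13, adjusted p = 0.0149 by edgeR's test of the difference, 8 libraries). With late FGF2 it was at 40.1 and 37.4 CPM, against 24.2 and 25.5 CPM in day-12 controls, and with early FGF2 it was at 77.8 and 66.0 CPM, against 76.7 and 76.1 CPM in day-6 controls. It was higher than both controls in 2 of 2 late libraries and in 1 of 2 early libraries. The control levels differed between the days, at 24.2 to 25.5 CPM on day 12 and 76.1 to 76.7 CPM on day 6, and the part of this in the difference was not tested. Early FGF2 was given together with doxycycline and late FGF2 after its withdrawal, so day and doxycycline cannot be told apart here. With 1 library left out the difference ran from 0.61 to 0.85. The call was lost in most of these fits, and kept only where an early-FGF2 library was left out.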

How the results depend on the processing

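Of the 9 genes, 3 were called with late FGF2 and 1 to 2 with 1 day-12 library left out. With early FGF2 0 were called and 0 to 1 without 1 day-6 library, and for the late minus early difference 1 was called and 0 to 2 without 1 library, or 0 at an adjusted p under 0.01. At 2-fold in place of 4-fold, 2 genes differed between day 11 and day 5 with doxycycline (GRIA1 and GRIK2), 2 between the day-11 control and day 0 and 1 between the day-5 control and day 0 (GRIA4, against 0 at 4-fold), which was also 1 with library totals, 0.25 CPM added or the deposited normalized values. In the FGF2 set, the direction of a log2 fold change turned only for genes that were not called. With late FGF2 and 1 library left out, values ran from -0.0746 to 0.0768 for GRIA2, -0.0588 to 0.149 for GRIK1, -0.588 to 0.132 for GRIK4 and -0.0312 to 0.0667 for GRIK5, which was -0.0015 with library totals. With early FGF2 they ran from -0.431 to 0.00615 for GRIA2, -0.17 to 0.0487 for GRIA3, -0.209 to 0.0296 for GRIK2, -0.217 to 0.487 for GRIK4 and -0.0183 to 0.141 for GRIK5. For the difference they ran from -0.00704 to 0.429 for GRIA2, -0.187 to 0.0642 for GRIA3 and -0.124 to 0.035 for GRIK5. The cause of these turns was not tested. Leaving out 1 library leaves a lone library in its group, assumed to vary like the others. The replicate block, which pairs libraries by number, kept the same 3 late calls (log2 fold change of GRIK2 0.64) and gave 598 calls over all genes for late FGF2, against 437 without it, and 206 for the difference, against 147. Deviations of same-numbered libraries correlated above 0.1 in 3 of 6 pairs of groups (0.33 between the day-6 groups, 0.13 between the day-12 groups and 0.14 between early FGF2 and day-12 controls) and by -0.00 to 0.04 in the other 3, so the numbers were not taken as pairs. Over all genes, 184 to 219 were called with late FGF2 when 1 day-12 library was left out. Depth limits GRIA1 on day 6, at 1 to 4 counts per library.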
